A study of Mus musculus with 8 samples.

Results

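*Ctnnb1* and *Sptbn1* are a pair of genes with a strong p53-bound region well upstream of the transcription start site (TSS). They are 2 of the 1425 genes in the authors' deposited gene table, with 1 region enriched after bleomycin (BLM) each. They were chosen by the fold enrichment of these regions within both BLM peak lists, from the genes of that table that the study grouped under TGF-β signaling. Their BLM folds and ranks are therefore given as a description and without a test. The regions come from the authors' list of regions enriched after BLM, so values above CTRL largely follow from this choice.

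p53 binding was measured by chromatin immunoprecipitation with a rabbit monoclonal antibody to p53 (D2H9O) and sequencing (ChIP-seq) in alveolar organoids, which are spheres grown in Matrigel from sorted alveolar type 2 (AT2) epithelial cells of wild-type mice. The mice were males aged 8 to 12 weeks on a C57BL/6 background. Organoids received DMSO as vehicle (CTRL, 2 libraries) or 100 μM BLM, a drug that breaks DNA (2 libraries), for 24 h before fixation with formaldehyde and DSG. No p53-null organoids were among these libraries, and all of them carried an intact p53 gene according to the genotype label. The material came from 2 mice, and the sources used here do not say which libraries shared a mouse, so the spread between replicates may be partly technical. Whether the cells were AT2 cells was not checked here, because peak lists hold no expression values.

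p53 is a transcription factor that is stabilized after DNA damage and binds DNA as a tetramer at pairs of short half-sites, often at some distance from the genes it regulates. *Ctnnb1* encodes β-catenin, which joins cadherins to the actin cytoskeleton at adherens junctions and also carries the canonical Wnt signal to the nucleus, where it works with TCF/LEF factors. In the lung, Wnt signaling helps to maintain AT2 cells with stem cell function. *Sptbn1* encodes the non-erythroid spectrin βII, a rod-like protein of the membrane skeleton, which has also been described as an adaptor of Smad3 and Smad4 in TGF-β signaling.

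The lists held 48743 and 50430 peaks in CTRL and 39577 and 41451 in BLM. A fold enrichment is the height of a peak over the local background, as the authors' peak caller gave it for each library. Whether the inputs served as that background is not given in the sources used here. Read counts are not part of these lists, and the sequencing depth is unknown. Over the 26316 joined regions (overlapping peaks of different libraries merged) that were called in all 4 libraries, the median ratio of mean BLM fold to mean CTRL fold was 0.772, a log2 value of −0.37, and the ratios below should be read against this shift. An exact permutation test of 2 libraries against 2 gives no two-sided p below 0.333, so values of every library are given and the conditions were not tested. In a pool of cells, more cells bound by p53 and more p53 per cell cannot be told apart.

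The region upstream of *Ctnnb1* was bound by p53 in vehicle organoids already, and its peak was higher after BLM by a factor of about 2. The region upstream of *Sptbn1* had a peak in the BLM libraries and none in the CTRL lists. Both genes also had a peak over the TSS in every library. At *Ctnnb1* its fold was not higher in BLM than in CTRL, and at *Sptbn1* the conditions were not compared.

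The *Ctnnb1* region spans 400 bp of chromosome 9 (120748119 to 120748518, GRCm39), and its middle is 14148 bp upstream of the TSS. Its peak had a fold enrichment of 31.4 in CTRL replicate 1, 24.1 in CTRL replicate 2, 47.5 in BLM replicate 1 and 65.8 in BLM replicate 2. Both BLM values were above both CTRL values, which largely follows from taking the region out of the BLM-enriched list. CTRL averaged 27.7 ± 5.17 (SD, n = 2) and BLM 56.6 ± 12.9 (SD, n = 2), a ratio of 2.04 and a log2 ratio of 1.03, which is 1.40 above the median of all joined regions. The peak ranked 153 of 50430 and 681 of 48743 in the CTRL lists and 70 of 39577 and 32 of 41451 in the BLM lists, so it belonged to the highest peaks in all 4 libraries. The −log10 q was 94.9 and 72.6 in CTRL and 302 and 337 in BLM. The peak was also wider in BLM, at 1141 and 704 bp against 515 and 461 bp in CTRL. In CTRL replicate 2 a separate, low peak with a fold of 4.78 was called 14612 bp upstream of the TSS. That peak lies inside the span of the BLM replicate 1 peak, so the widths depend in part on how peaks were merged. Its summit was placed at nearly the same base in every library, 14161 and 14148 bp upstream of the TSS in CTRL and 14153 and 14144 bp upstream in BLM. This spread of 17 bp compares with a median of 51.5 bp over the 280 enriched regions that had a peak in all 4 libraries, of which 39 had a smaller spread.

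The *Sptbn1* region spans 400 bp of chromosome 11 (30269757 to 30270156, GRCm39), with its middle 51787 bp upstream of the TSS. No peak was called over it in either CTRL library. BLM replicates 1 and 2 had a peak there with folds of 35.0 and 37.7, a mean of 36.4 ± 1.90 (SD, n = 2). It ranked 127 of 39577 and 118 of 41451, with a −log10 q of 95.5 and 99.1. The replicates placed the summit at the same base, 51792 bp upstream of the TSS. Of the 914 enriched regions with a peak in both BLM libraries, 25 had their BLM summits at 1 base, and the median spread was 14 bp. The peaks were 314 and 530 bp wide, and in BLM replicate 1 a second, low peak with a fold of 5.96 was called 51290 bp upstream of the TSS. A ratio of BLM to CTRL was not computed, because the lists give no value where no peak was called.

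**Figure D1:**
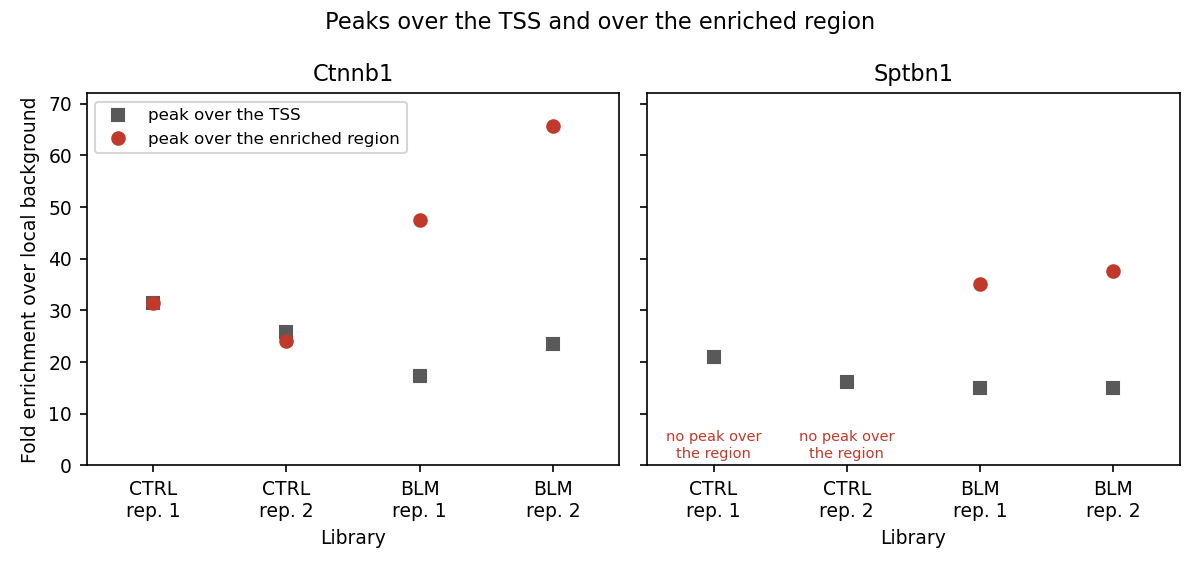
Fold enrichment over the local background (vertical axis) in each of the 4 libraries (horizontal axis), for the peak over the TSS (grey squares) and the peak over the enriched region (red circles) of *Ctnnb1* (left) and *Sptbn1* (right). In CTRL the *Ctnnb1* region and TSS lie together near 25 to 31, in BLM the region stands at 47.5 and 65.8 above the TSS, and at *Sptbn1* the region has a peak in BLM alone, while the grey square of 20.9 in CTRL replicate 1 belongs to a wide peak whose summit is 1526 bp upstream of the TSS.

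The enriched list held 914 regions with a peak in both BLM libraries and 1 with a peak in a single BLM library. Of all of these, 280 (30.6%) had a peak in the 4 libraries alike, as the *Ctnnb1* region did, and 520 (56.8%) had BLM peaks without any CTRL peak, as the *Sptbn1* region did. Both patterns were thus common in the enriched list. In the BLM lists the regions were above the median fold of their pattern, and they had been chosen on this fold. Among the 280 regions with a peak in all 4 libraries, the *Ctnnb1* peak ranked 18 and 27 by fold in the CTRL lists and 66 and 32 in the BLM lists. Its log2 ratio of 1.03 was below the median of these 280 regions, 1.27, and 114 of them had a lower one. The *Ctnnb1* region was therefore high in both conditions rather than one of those with a large change. Among the 520 regions without a CTRL peak, where the median fold was 9.10 and 8.91 in BLM replicates 1 and 2, the *Sptbn1* peak ranked 5 and 3. Of all enriched regions, 30 had a higher fold than the *Ctnnb1* region in both BLM libraries, and 84 a higher fold than the *Sptbn1* region. Of these, 24 and 47 respectively lay more than 10 kb from the nearest TSS of an assigned gene, so high peaks far from a TSS were not particular to *Ctnnb1* and *Sptbn1*. The median distance to the nearest assigned TSS was 25774 bp over the 909 regions with a gene. The *Ctnnb1* region was nearer than this, with 325 regions closer to a TSS, and the *Sptbn1* region farther, with 594 closer.

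**Figure D2:**
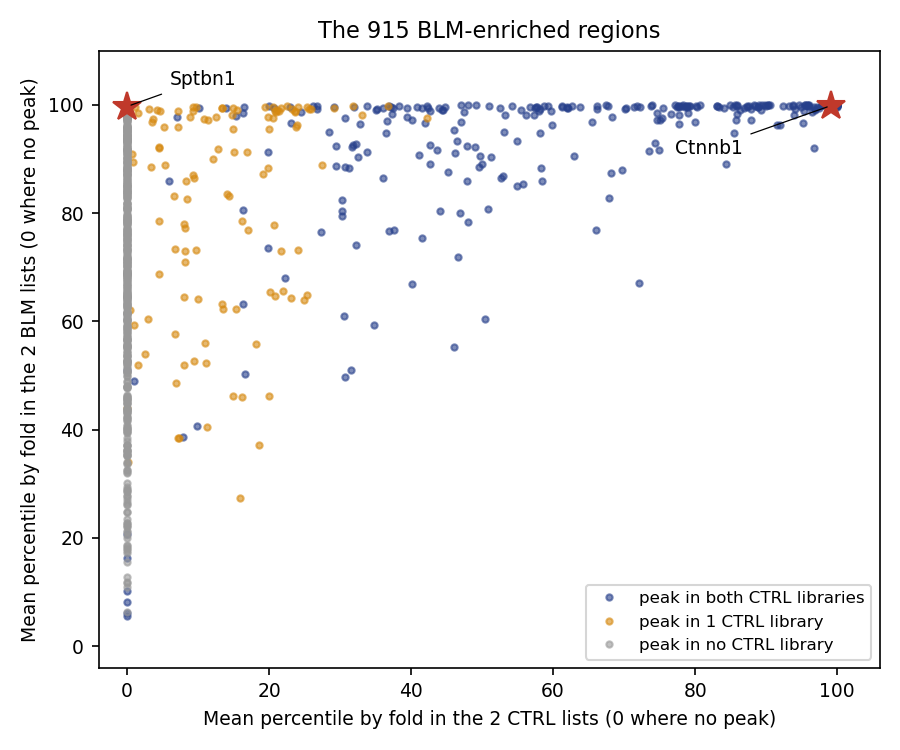
Mean percentile by fold of the peak over each BLM-enriched region in the CTRL lists (horizontal axis) and the BLM lists (vertical axis), with 100 as the highest peak of a list and 0 where no peak was called. Colors give the number of CTRL libraries with a peak, and the stars mark *Ctnnb1*, at 99.2 in CTRL and 99.9 in BLM, and *Sptbn1*, at 0 in CTRL and 99.7 in BLM.

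Each region is assigned to a second gene in the authors' deposited table. The *Ctnnb1* region is shared with *Rpl14*, which encodes a protein of the large ribosomal subunit and whose TSS is 347808 bp away. The *Sptbn1* region is shared with the uncharacterized gene *4930505A04Rik*, 151852 bp from its TSS. In both cases the named member is the nearer gene, and RefSeq places 0 protein-coding genes between the members of either pair (GRCm38.p6). It places 13 long non-coding RNA genes between *Rpl14* and *Ctnnb1* and 1 between *Sptbn1* and *4930505A04Rik*. The TSS of both sharing genes had a peak in 3 of the 4 libraries, with folds from 4.08 to 8.20. Over the *Rpl14* TSS the fold was 5.69 and 7.56 in CTRL and 4.08 in BLM replicate 2, with no peak in BLM replicate 1. Over the *4930505A04Rik* TSS it was 6.22 and 6.38 in CTRL and 8.20 in BLM replicate 2, again with no peak in BLM replicate 1. No other enriched region was near either of them. The nearest one lay 1261108 bp from that of *Ctnnb1*, where it is assigned to *Ano10* and *Snrk*, and 472908 bp from that of *Sptbn1*, where it is assigned to *Gpr75* and *Psme4*.

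Both members also had a p53 peak over the TSS in every library. Over the *Ctnnb1* TSS the fold was 31.5 and 25.7 in CTRL replicates 1 and 2 and 17.2 and 23.5 in BLM replicates 1 and 2. Both BLM values lay below both CTRL values, with means of 20.4 ± 4.45 (SD, n = 2) against 28.6 ± 4.07 (SD, n = 2). The log2 ratio of −0.49 was 0.12 below the median shift of all joined regions, so that the TSS peak was close to the typical joined region in this respect. Over the *Sptbn1* TSS, CTRL replicate 2 had a fold of 16.2 and BLM replicates 1 and 2 had 15.0 and 14.9, with summits 12, 29 and 26 bp downstream of the TSS. In CTRL replicate 1 the peak over the TSS was 2581 bp wide, and its fold of 20.9 belonged to a summit 1526 bp upstream, where the other libraries had separate peaks. Those summits lay 1585 bp upstream in CTRL replicate 2, with a fold of 18.1, and 1535 and 1462 bp upstream in BLM replicates 1 and 2, with folds of 7.32 and 6.45. The value at the *Sptbn1* TSS itself was therefore known for 1 CTRL library, and the conditions were not compared there. Of 1067 genes of the table whose TSS could be placed, 470 (44.0%) had a peak over the TSS in all 4 libraries. Among the genes with a TSS peak, that of *Ctnnb1* ranked 7 of 604 and 9 of 576 in the CTRL libraries and 49 of 547 and 31 of 564 in the BLM libraries.

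The region can also be set against the TSS peak of the same library, which removes a difference in scale only as far as it is common to both peaks, and this was not tested. The *Ctnnb1* region had 0.996 and 0.935 times the fold of the TSS peak in CTRL replicates 1 and 2, and 2.76 and 2.80 times in BLM. The ratio of region to TSS was thus near 1 in vehicle organoids and near 2.8 after BLM. A higher ratio in BLM largely follows from taking the region out of the BLM-enriched list, and the TSS fold was also lower in BLM. The likeness of the BLM ratios rests on 2 libraries and does not measure their spread. At *Sptbn1* the region had 2.34 and 2.52 times the fold of the TSS peak in BLM.

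A *Ctnnb1* promoter is shown because a peak lay over the TSS in all 4 libraries. RefSeq has 1 more *Ctnnb1* promoter, for a start 178 bp inside the gene, with 43 CG dinucleotides and 0 p53 half-sites. The promoter printed here is that of the gene start. The sequence holds the 250 bases before the first transcribed base in RefSeq (120933150 to 120933399 on chromosome 9 of GRCm38.p6, plus strand), with CG dinucleotides in capitals.
*Ctnnb1* promoter: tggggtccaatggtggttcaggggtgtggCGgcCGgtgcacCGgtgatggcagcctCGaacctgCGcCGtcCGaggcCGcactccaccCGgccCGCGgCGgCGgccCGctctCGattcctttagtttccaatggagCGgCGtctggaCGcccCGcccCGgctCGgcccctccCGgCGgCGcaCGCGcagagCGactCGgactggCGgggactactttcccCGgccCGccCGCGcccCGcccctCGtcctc
It holds 35 CG dinucleotides, more than 97.0% of the 32851 RefSeq promoters of the same length, whose median is 6, and its GC content is 74.8% against a median of 52.4%. No p53 half-site was found in it on either strand, and 0 copies of CATG, which is 1 form of the core of a half-site, whereas 7.13% of all promoters hold a half-site and 53.9% hold CATG. For *Sptbn1*, RefSeq promoters were given only for starts 48612 and 70127 bp inside the gene, which are not the TSS used by the gene table, and none is printed. Both lie in a stretch without a peak in any library, between 42520 and 74989 bp downstream of the *Sptbn1* TSS. The sequences of the enriched regions were not analysed here.

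The surroundings of both TSS held many weaker peaks. Within 100 kb of the *Ctnnb1* TSS, 22 and 16 peaks were called in CTRL and 12 and 16 in BLM, a mean of 19 ± 4.24 (SD, n = 2) against 14 ± 2.83 (SD, n = 2). The counts of CTRL replicate 2 and BLM replicate 2 were equal, so the conditions overlapped. Within 100 kb of the *Sptbn1* TSS, the CTRL libraries had 21 peaks apiece and the BLM libraries 17. With equally long lists this difference was not seen, as given in the closing section. The median count over the 1067 genes was 7 in each library, and at least 819 of them had fewer peaks than *Ctnnb1* in every library and at least 957 fewer than *Sptbn1*.

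**Figure D3:**
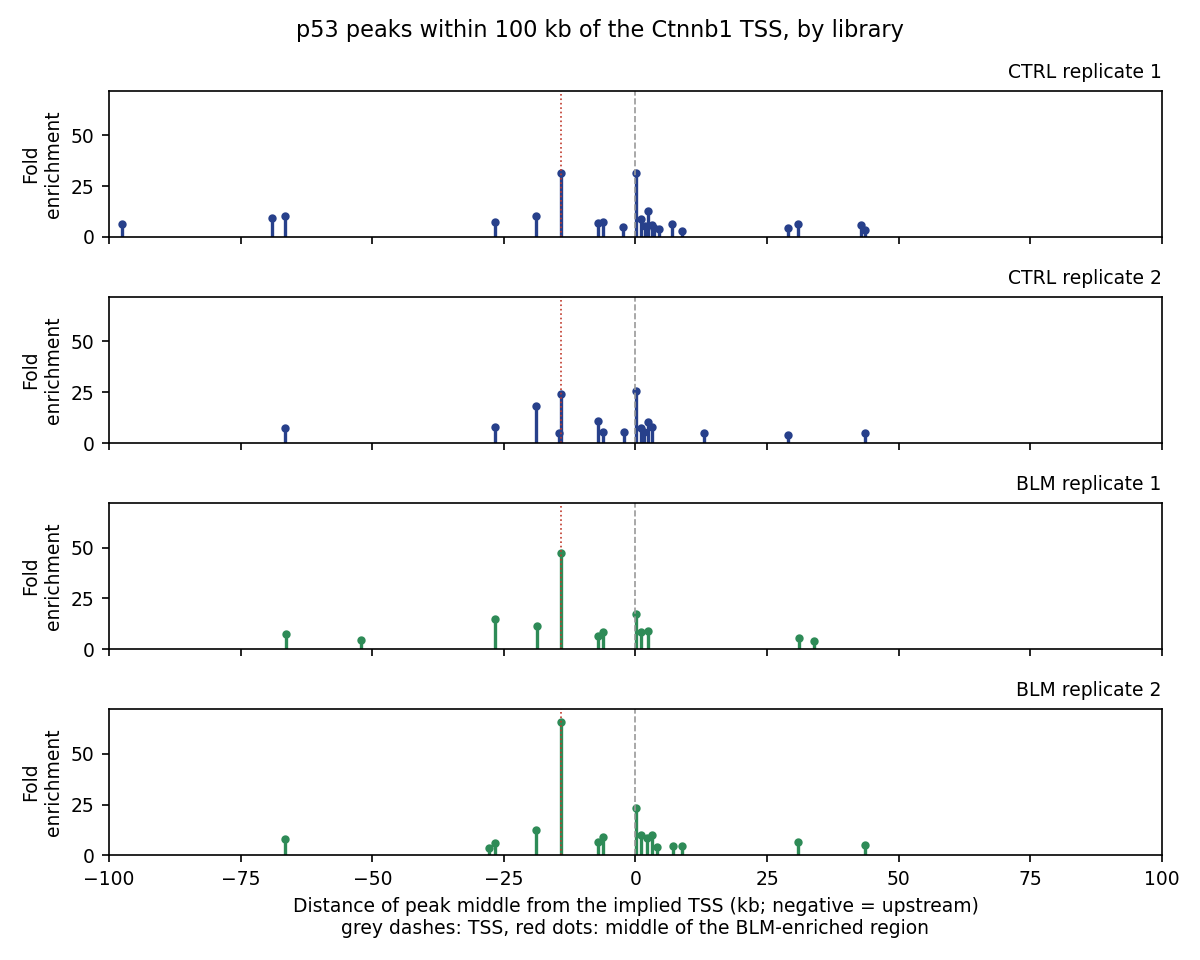
p53 peaks within 100 kb of the *Ctnnb1* TSS in the 4 libraries, with the distance of each peak's middle from the TSS in kb (horizontal axis) and its fold enrichment (vertical axis, same scale in all panels). The peak 14 kb upstream and the peak over the TSS are the 2 highest in every library, with the region above the TSS in BLM (47.5 and 65.8) and just below it in CTRL (31.4 and 24.1).

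Merged over the libraries, the *Ctnnb1* window held 27 joined regions. Of these, 9 were called in all 4 libraries (41.6% of all joined regions were), 3 in the CTRL pair alone (8.4% of all) and 0 in the BLM pair alone (2.03% of all). Of the 9, both BLM folds were above both CTRL folds in 2 (5.87% of all regions called in 4 libraries) and below them in 3 (47.2% of all). One of the 2 is the enriched region, which was chosen as enriched in BLM. The other lay 6129 bp upstream, with a fold of 7.27 and 5.35 in CTRL and 8.26 and 9.14 in BLM. A peak 26621 bp upstream was high in BLM replicate 1 alone, at 14.7 against 6.24 in BLM replicate 2 and 7.17 and 8.02 in CTRL. A peak 18884 bp upstream was highest in CTRL replicate 2, at 18.2, and lay between 10.0 and 12.5 in the others. The 3 lower ones were the TSS peak and those 7081 bp upstream and 2332 bp downstream, the last with a fold of 12.9 and 10.5 in CTRL and 8.76 and 8.55 in BLM. The 3 regions called in CTRL alone were low, with folds from 4.01 to 5.19.

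The *Sptbn1* window held 25 joined regions, of which 13 were called in all 4 libraries (41.6% of all joined regions were). In the CTRL pair alone 2 were called (8.4% of all), and in the BLM pair alone 1, the enriched region (2.03% of all). Of the 13, both BLM folds were above both CTRL folds in 1, against 5.87% of all regions called in 4 libraries. They were below them in 6, against 47.2% of all such regions. The median log2 ratio of the 13 was −0.38, against −0.37 over all such joined regions. One of the 6 is the joined region over the TSS, and its log2 ratio of −0.38 is also this median. It sets CTRL summits 1526 and 1585 bp upstream of the TSS against BLM summits 29 and 26 bp downstream. This value is therefore not a comparison of the conditions at the TSS. The highest CTRL peak of the window lay 7350 bp upstream of the TSS, with a fold of 27.9 in CTRL replicate 1 and 16.5 in CTRL replicate 2, and had 11.0 and 16.3 in BLM. A peak 20490 bp upstream had 13.4 and 18.3 in CTRL and 10.9 and 8.87 in BLM. The lowest ratio of the 13 was 83386 bp downstream, where the fold was 12.7 and 14.2 in CTRL and 5.20 and 6.97 in BLM, a log2 ratio of −1.14. The 1 region with higher BLM values lay 95327 bp downstream, with 6.55 and 7.23 in CTRL and 12.5 and 8.0 in BLM. Between the enriched region and the peaks about 22 kb upstream of the TSS, the 1 further joined region was the low peak beside the enriched region in BLM replicate 1.

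**Figure D4:**
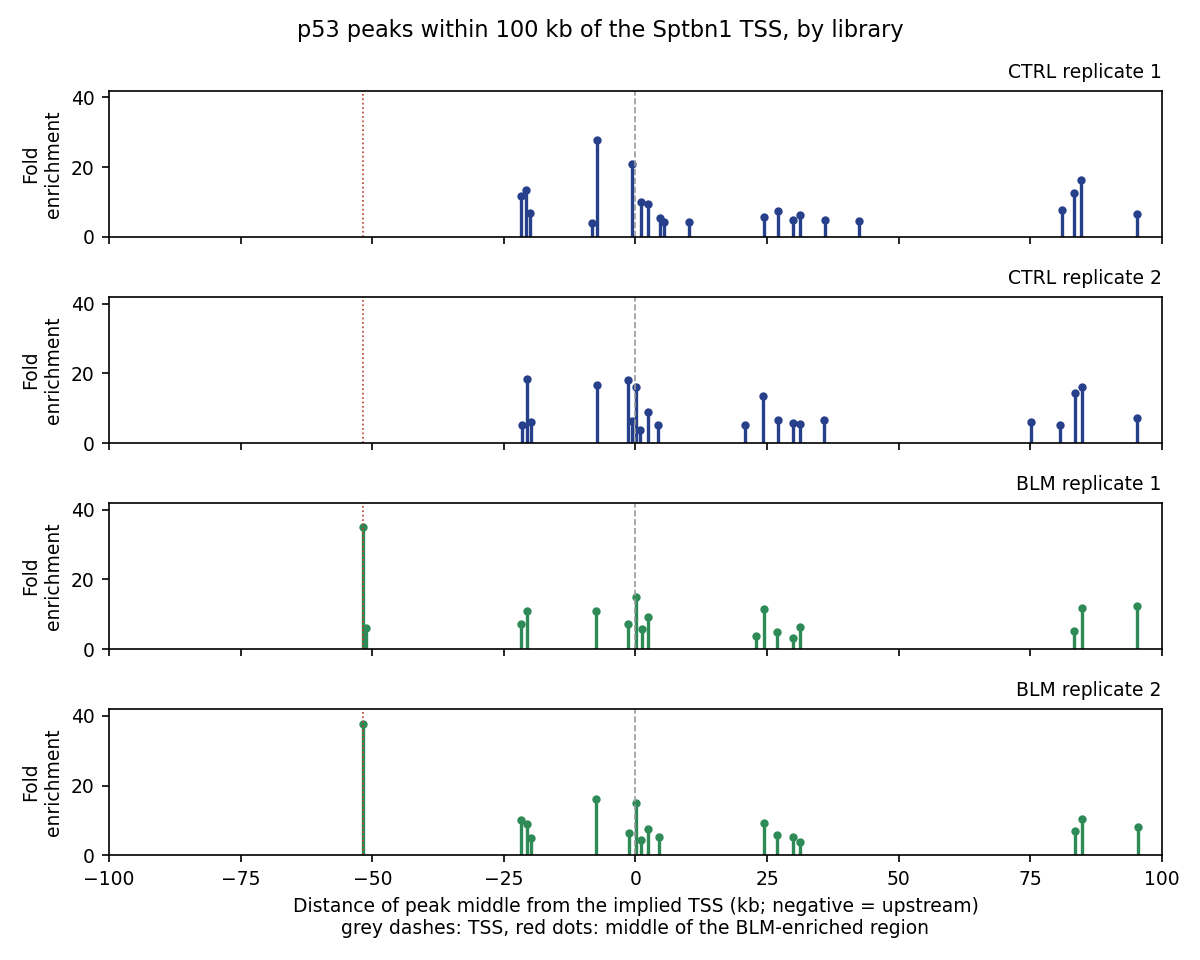
p53 peaks within 100 kb of the *Sptbn1* TSS in the 4 libraries, drawn as for *Ctnnb1* with the distance from the TSS in kb (horizontal axis) and the fold enrichment (vertical axis). The peak about 52 kb upstream stands at 35.0 and 37.7 in the BLM libraries and is absent from the CTRL lists. The higher of the other peaks appear in both conditions, and some low peaks were called in CTRL alone or BLM alone.

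**Figure D5:**
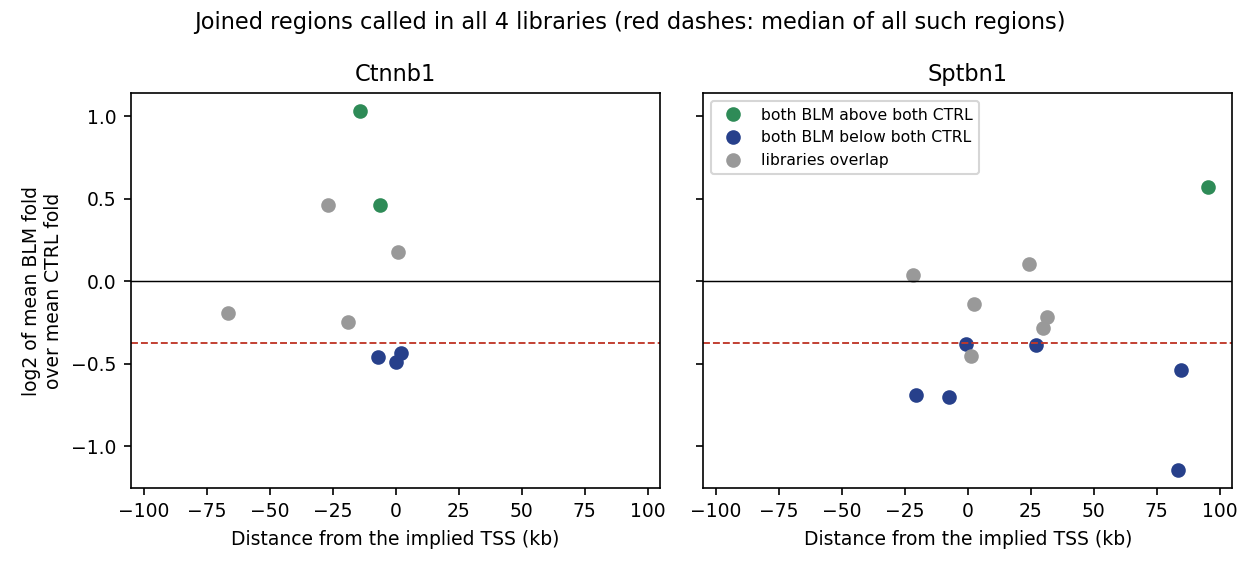
The log2 ratio of mean BLM fold to mean CTRL fold (vertical axis) of the 9 joined regions around *Ctnnb1* (left) and the 13 around *Sptbn1* (right) that were called in all 4 libraries, by distance from the TSS in kb. Green and blue points mark regions whose libraries do not overlap between conditions, and the enriched region of *Ctnnb1*, at 1.03, is the highest of them, while the red dashes give the median of all such regions, −0.37. The *Sptbn1* point nearest the TSS sets CTRL summits upstream of the TSS against BLM summits at the TSS.

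The enriched regions most like each member were found by their percentiles by fold over the 4 lists, with 0 where no peak was called. This measure includes the values on which the members were chosen and is a description. For *Ctnnb1* the nearest was a region assigned to *Crim1* and *Fez2*, 61770 bp from the nearer TSS, with a fold of 36.1 and 23.8 in CTRL and 50.0 and 41.4 in BLM. It was followed by the regions of *Gas6* (a ligand of TAM receptor kinases) and *1700029H14Rik*, of *Klhdc4*, of *Fan1* (a nuclease for the repair of DNA crosslinks) and *Mtmr10*, and of *Il6st* (the shared receptor gp130 of IL-6 family cytokines) and *Ankrd55*. Their CTRL folds ranged from 25.2 to 35.2 and their BLM folds from 42.3 to 108. For *Sptbn1* the nearest was a region assigned to *Hectd2* and *Pcgf5*, 103098 bp from the nearer TSS, with 34.6 and 33.6 in BLM and no CTRL peak. It was followed by the regions of *Cd81* (a tetraspanin) and *Tssc4*, of *Nfrkb* and *Tmem45b*, of *Arnt2* and *Gm2115*, and of *4833427G06Rik*. Their BLM folds ranged from 28.0 to 45.4.

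The other genes of the Wnt and spectrin systems were looked up in the authors' deposited table. Of 131 genes in 9 lists, 18 (13.7%) have an enriched region, against 6.28% of the 21900 protein-coding symbols of RefSeq. The shares were not tested against each other. They count regions assigned over as much as 1000 kb, such as those 484560 bp from the TSS of *Fzd1* and 421076 bp from that of *Sfrp2*. Whether the stretch open to assignment was longer for the listed genes than for other genes was not tested. The higher share is therefore not read as an enrichment of these systems. Of the 18 genes, 2 have a region within 5 kb of the TSS, *Fzd8*, a Wnt receptor, 696 bp downstream, and *Wnt7b*, a Wnt ligand of the lung epithelium, 2601 bp upstream. The share of all genes with a region within 5 kb is not given here, so this count is not read as many or few.

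Of 19 Wnt ligands, *Wnt7b*, *Wnt4*, *Wnt16* and *Wnt2* have a region. A second *Wnt7b* region, 22090 bp downstream of the TSS, had a fold of 17.9 and 16.3 in BLM and no CTRL peak. Of 18 receptors and co-receptors, *Fzd8*, *Ryk*, *Ror2* and *Fzd1* have one. The *Fzd8* peak had a fold of 7.37 and 4.74 in CTRL and 8.27 and 9.80 in BLM. Of 17 genes of the cytoplasmic relay and the destruction complex, which marks β-catenin for degradation, *Axin2* and *Fbxw11* have a region. The nearest of their regions lay 91628 bp from the TSS of *Axin2*. Of 16 nuclear partners, *Tcf7l2* has one, 234498 bp from its TSS. Of 17 secreted or membrane Wnt inhibitors, *Dkk3* and *Sfrp2* have one, and the *Sfrp2* region, 421076 bp upstream, had 23.2 and 30.7 in BLM and 4.74 and 9.86 in CTRL. Of 15 partners of β-catenin at adherens junctions, *Nectin1* has one, with low BLM folds of 3.97 and 4.74, and the cadherin and α-catenin genes of the list have none.

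*Sptbn1* is the 1 gene of the 7 spectrins with an enriched region. Of 16 partners in the membrane skeleton, 2 adducins, which cap actin filaments and recruit spectrin to them, have a distant one. The *Add3* region, 143504 bp from the TSS, had 22.6 and 22.1 in BLM and no CTRL peak, and the *Add2* region, 152081 bp from the TSS, is shared with *Tgfa*. Of 7 receptors, Smads and a Smad anchor of TGF-β signaling, *Smad2* and *Smad3* have a region, 113424 and 138594 bp upstream. The *Smad2* region, shared with *Zbtb7c*, had 12.1 and 12.2 in BLM, and in CTRL a peak of 3.60 in replicate 2 alone. The *Smad3* region, shared with *Smad6*, had 8.85 and 9.40 in BLM and 6.01 and 7.29 in CTRL.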

How the data were processed

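p53 ChIP-seq peaks of 4 libraries (2 CTRL, 2 BLM) were analysed, with groups and replicate numbers from the titles. No peak list of the 4 inputs was used here. The submitters' processing notes name Trim Galore 0.6.7, Bowtie2 2.5.1, MACS3 3.0.0b1, DiffBind 3.8.4 and edgeR 3.40.2 and the builds mm39 and mm10. Peaks were called by the authors 1 library at a time, and each deposited peak has a fold enrichment, the −log10 of its p-value and of its q-value, and a score equal to 10 times the latter, rounded down. The lowest −log10 q was just above 2. The use of inputs, the treatment of duplicate reads and the threshold of the enriched list are not given in the sources used here. Enriched regions were assigned to genes by the authors with GREAT 4.0.4 (5 kb upstream, 1 kb downstream, extended by at most 1000 kb).

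Positions are on GRCm39, and the GREAT header names mm10 although its positions equal those of the region list. The TSS was taken as the middle of the region minus its signed distance for a gene on the plus strand and plus the distance on the minus strand (*Sptbn1*), with strands from RefSeq. Of 148 genes with several regions, 140 gave positions within 10 bp. The spacing between the TSS of each member and of the gene sharing its region differed from that of the RefSeq gene starts (GRCm38.p6) by 73 bp for *Ctnnb1* and 194 bp for *Sptbn1*.

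An overlap of 1 bp or more counted, and of several peaks over a region the one of highest fold was used. Percentiles are by fold within 1 list. A window holds peaks that reach within 100 kb of the TSS. Work was done in Python 3.11.15 with numpy 2.4.6 and pandas 2.3.3. Overlaps and joining were tested on simulated lists. Named genes are the members, those sharing their regions, those of 9 fixed lists with an enriched region (up to 6 per list, nearest first) and those of the 5 regions most like each member. The members and lists were chosen with earlier results of these data known. A p53 half-site was sought by its usual 10-base consensus without mismatches. Promoters and gene names are from RefSeq (GRCm38.p6).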

Additional observations from a re-analysis of the deposited data

How the results depend on the processing

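Of 49 alternative values, 43 stayed within 1 SD of the replicates of the value reported. This count does not measure stability. With 2 libraries per condition, leaving 1 out could hardly move a value by more than 1 SD. Filters that the high *Ctnnb1* peaks pass also leave their folds unchanged. The mean percentile of the *Sptbn1* region in BLM was 99.64 when peaks under a −log10 q of 5 were dropped and 99.56 by −log10 q, against 99.70. The other values that moved were counts of peaks around the TSS. With every list shortened to its 39577 highest peaks, the mean BLM count minus the mean CTRL count was 0 at *Ctnnb1* and 0.5 at *Sptbn1*, against −5 and −4, so that the lower counts in BLM were not seen with lists of equal length. At *Sptbn1* it was −2.5 with a −log10 q of at least 5 and 0 when the TSS was placed without regard to strand. At *Ctnnb1*, leaving out 1 library gave −8 (without CTRL replicate 2), −7, −3 (without BLM replicate 1) and −2 (without CTRL replicate 1). The log2 ratio of the *Ctnnb1* region ranged from 0.78 to 1.25 over these settings. No CTRL peak lay over the *Sptbn1* region in any of the settings run. These settings only dropped peaks or libraries or asked for more overlap, so none of them could have added such a peak.

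No paired analysis was possible because the sources used here do not say which libraries shared a mouse, and no result comes from a test. The depth is unknown, so that a peak missing from a list shows only that none passed the authors' threshold.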
